A study of Homo sapiens with 6 samples.

Results

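The long arm of chromosome 3 (3q) was described across 3 lists of ChIP-seq peaks from human lung epithelial cell lines, all on the hg19 build. Its members were all peaks on chromosome 3 whose summit lay at or above position 91000000, the start of the arm in the cytogenetic map. They numbered 1978 of 35687 peaks, namely 820 of 9769 Calu3 BRD8 peaks, 251 of 9505 16HBE14o- BRD8 peaks and 907 of 16413 Calu3 CTCF peaks. Calu3 is a lung adenocarcinoma line and 16HBE14o- an immortalised bronchial epithelial line, both grown in DMEM with 10% serum and not treated. The same BRD8 antibody was used in both lines. ChIP-seq sequences the DNA that an antibody recovers with its protein, and each list was combined by the authors from 2 replicates of 1 cell line and 1 antibody. The arm was chosen because it held more Calu3 than 16HBE14o- BRD8 peaks, so that difference, and every overlap or rank difference between the BRD8 lists, is a description with no test. Each list is 1 pooled value for its experiment with unknown depth. No test across samples could be made of any result, and the intervals given are exact 95% intervals that cover counting error only.

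BRD8 carries a bromodomain, a fold that reads acetylated lysines, and belongs to NuA4/TIP60, a complex that acetylates histones H4 and H2A and takes part in the exchange of the H2A.Z variant. CTCF binds DNA through zinc fingers, marks insulators and, with cohesin, holds the bases of chromatin loops. The long arm of chromosome 3 carries genes known in epithelial biology and lung cancer, among them GATA2 in 3q21.3, TERC and MECOM in 3q26.2, PIK3CA in 3q26.32, SOX2 in 3q26.33, TP63 in 3q28 and MUC4 in 3q29. These bands serve for orientation. Peaks were not assigned to genes, and no peak sequence was read, because the reference tables used here are on another genome build.

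The arm held 8.39% of the Calu3 BRD8 list and 2.64% of the 16HBE14o- BRD8 list, a ratio of list shares of 3.18 (2.76 to 3.68). Per megabase it held 7.66 Calu3 BRD8 peaks and 2.35 16HBE14o- BRD8 peaks. Over the rest of the genome the lists were nearly level, at 3.06 Calu3 and 3.16 16HBE14o- BRD8 peaks per megabase. The arm was thus dense for Calu3 BRD8 and sparser than the rest for 16HBE14o- BRD8. Calu3 CTCF was dense as well, with 8.47 peaks per megabase on the arm and 5.29 elsewhere. The CTCF share of 5.53% was 2.09 times the 16HBE14o- BRD8 share (1.82 to 2.42), and the Calu3 BRD8 share was 1.52 times the CTCF share (1.38 to 1.67). Both Calu3 lists therefore exceeded the 16HBE14o- list on the arm, BRD8 by more than CTCF. No input DNA was among the files used here, so the amount of DNA of the arm in each line and the occupancy of its sites cannot be told apart.

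The peaks were counted in 22 bins of 5 Mb tiled from the start of the arm, of which the last is shorter. Calu3 had more BRD8 peaks than 16HBE14o- in 19 bins, the same number in 2 and fewer in 1. No count of this kind is given for the bins of the whole genome. The first bin, 91 to 96 Mb next to the centromere, held 0 Calu3 and 2 16HBE14o- BRD8 peaks. A count of 0 allows up to about 3 by a 1-sided 95% limit, while the intervals given elsewhere are 2-sided. The next bin, 96 to 101 Mb, held 15 Calu3 and 2 16HBE14o- BRD8 peaks with 18 CTCF peaks. From 101 to 111 Mb the lines were equal, with 5 peaks each and then 8 each. From 111 to 126 Mb Calu3 led at ratios of list shares of 1.87, 1.17 and 1.43, with 25, 6 and 28 BRD8 peaks per bin, against 13, 5 and 19 in 16HBE14o-. Beyond 126 Mb the counts separated. The bin at 126 to 131 Mb held 91 Calu3 and 33 16HBE14o- BRD8 peaks, the bin at 156 to 161 Mb 82 and 12, the bin at 166 to 171 Mb 46 and 4, and the bin at 181 to 186 Mb 102 and 29.

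**Figure D1:**
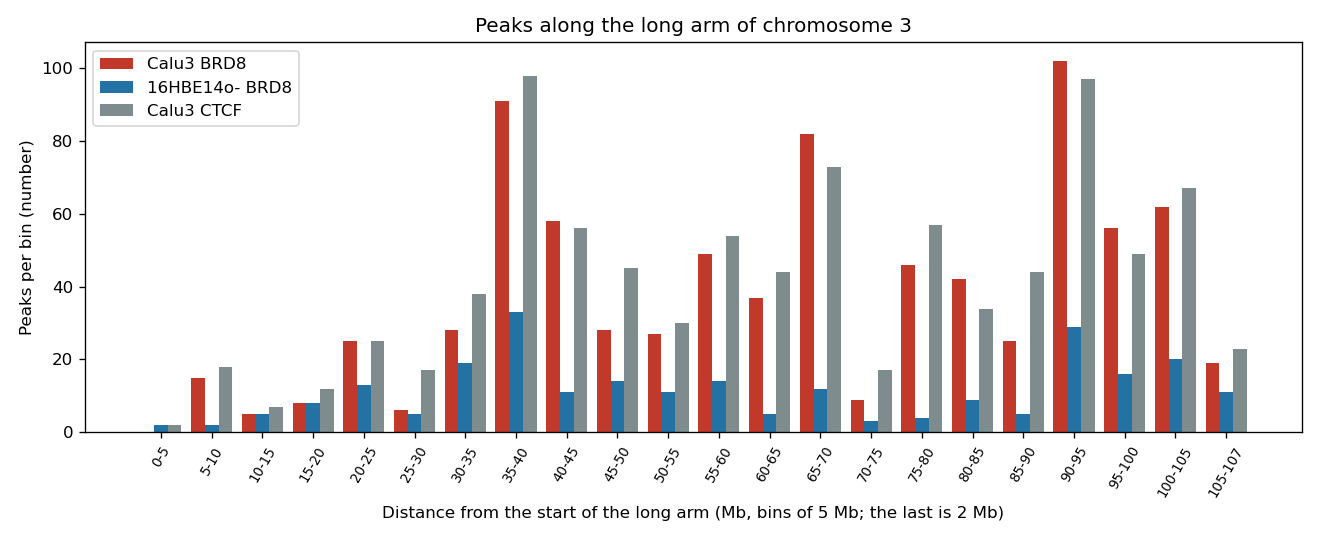
Number of Calu3 BRD8, 16HBE14o- BRD8 and Calu3 CTCF peaks (y axis) in each 5 Mb bin of the long arm, by distance from its start (x axis). Calu3 BRD8 bars follow the CTCF bars in height, with 102 BRD8 and 97 CTCF peaks in the fullest BRD8 bin, while no bin holds more than 33 16HBE14o- BRD8 peaks.

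A ratio of list shares was read for the 21 bins whose BRD8 lists together held 10 peaks or more. In 14 of them (66.7%) the Calu3 share was at least 2 times the 16HBE14o- share, and in 0 bins was it 0.5 times or less. Over the whole genome 73 of 446 such bins (16.4%) passed the same fold, and 59 of 425 (13.9%) did so off the arm. A Calu3 share of 0.5 times or less was found in 104 of the 446 bins (23.3%). The arm was chosen on this contrast, so these shares stand side by side as a description. The lowest ratio was 0.973, at 101 to 106 and at 106 to 111 Mb. The highest was 11.2 (4.09 to 42.8), at 166 to 171 Mb, a stretch that ends in 3q26.31 and covers the whole of 3q26.2. Ratios of 7.20 (2.82 to 23.5) at 151 to 156 Mb and 6.65 (3.61 to 13.4) at 156 to 161 Mb followed among the bins beyond 126 Mb. In 13 bins the interval lay above 1.

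By bins, the Calu3 excess became continuous from 126 Mb, in 3q21.3, and reached to 196 Mb, in 3q29. Of the 14 bins from 126 to 196 Mb, 13 passed the fold, and the remaining one, 136 to 141 Mb, had a ratio of 1.95 from 28 Calu3 and 14 16HBE14o- peaks. Of the 7 bins before 126 Mb, the bin at 96 to 101 Mb passed it, at 7.30 (1.70 to 65.8), a ratio that rests on 2 16HBE14o- peaks. The last bin, from 196 Mb to the chromosome's end, stood at 1.68 (0.760 to 3.91). To place the edges without bins, the summits of both BRD8 lists were read in order and the stretch richest in Calu3 summits was found. Scored at 2 times the odds of the lists, that stretch ran through the centromere, from position 24725445 in 3p24.2 to 197894670 in 3q29. It held 1025 Calu3 and 307 16HBE14o- peaks. On the long arm alone it began at the arm's first Calu3 summit, 96532175 in 3q11.2. Scored at 3 times the odds it ran from 124283992 in 3q21.2 to 196411888 in 3q29. The start of the excess on the arm thus depends on the odds used, and its end moved by less than 5 Mb.

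Divided at these last edges, a division chosen after the data were seen, the arm had 3 unequal stretches. From 124 to 196 Mb, 72.1 Mb held 732 Calu3 and 190 16HBE14o- BRD8 peaks, a ratio of 3.75 (3.19 to 4.42). The 33.3 Mb before it held 73 Calu3 and 51 16HBE14o- BRD8 peaks, a ratio of 1.39 (0.961 to 2.03). The 1.61 Mb after it held 15 and 10, a ratio of 1.46 (0.613 to 3.63). The CTCF share was 2.39 times the 16HBE14o- share inside the stretch (2.04 to 2.81) and 1.18 times before it (0.837 to 1.69). Within Calu3, the BRD8 share was 1.57 times the CTCF share inside (1.42 to 1.74) and 1.18 times before it (0.862 to 1.61). The stretch was chosen by the BRD8 counts of both lines, so every ratio that uses one of those lists is shifted by that choice.

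**Figure D2:**
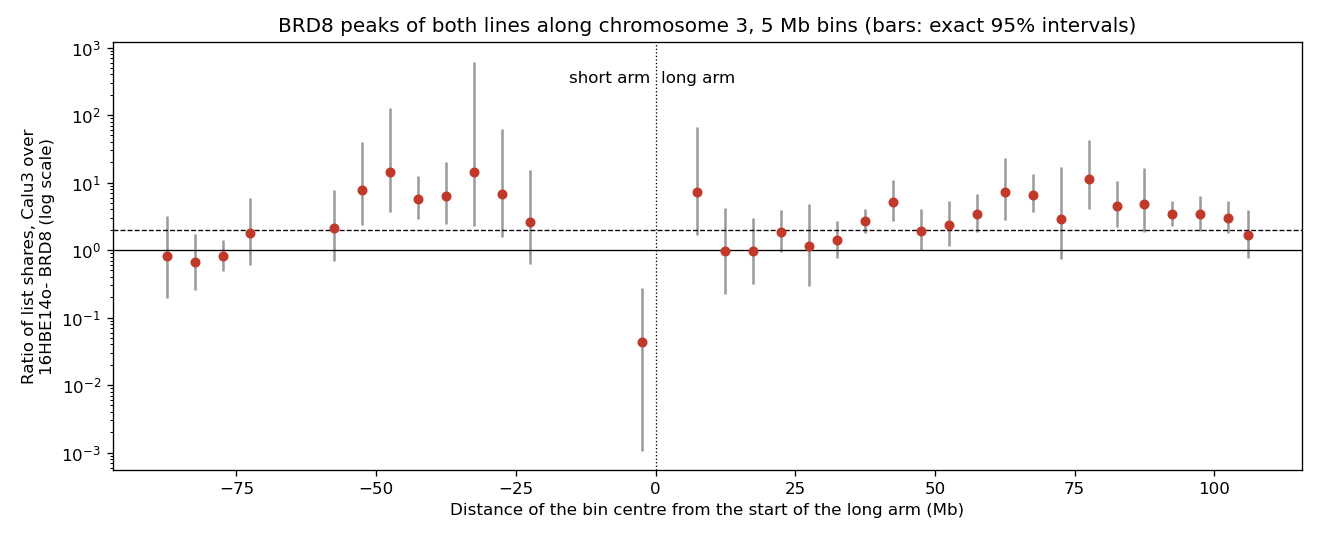
Ratio of the Calu3 share to the 16HBE14o- share of BRD8 peaks (log scale) in 5 Mb bins with at least 10 BRD8 peaks, by distance of the bin centre from the start of the long arm. Bars are exact 95% intervals, the solid line marks a ratio of 1 and the dashed line 2. From 35 to 105 Mb along the long arm all points but that of 45 to 50 Mb, at 1.95, lie above the dashed line, and the short-arm bin next to the centromere stands lowest, at 0.0442.

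Among cytogenetic bands with at least 10 BRD8 peaks, the ratio was highest in 3q26.2, with 43 Calu3 and 4 16HBE14o- BRD8 peaks beside 50 CTCF peaks, a ratio of 10.5 (3.80 to 40.1). This is the band of TERC, the RNA template of telomerase, and of MECOM, a zinc finger transcription factor. In 3q22.1 there were 54 Calu3 and 7 16HBE14o- peaks, a ratio of 7.51 (3.40 to 19.6). In 3q26.33, the band of the transcription factor SOX2, there were 27 and 4, a ratio of 6.57 (2.29 to 25.8). The ratio was lower toward the end of the arm, at 2.65 (1.29 to 5.87) in 3q28, the band of the epithelial transcription factor TP63, and 2.67 (1.70 to 4.31) in 3q29. It was lower still in 3q22.3, at 1.86 (0.891 to 4.11), and in 3q21.3, at 2.23 (1.44 to 3.52). The intervals of 3q26.2, 3q22.1, 3q26.33, 3q28 and 3q29 overlap one another. In 3q21.1 the lines were near even, with 9 Calu3 and 11 16HBE14o- peaks (0.796, 0.292 to 2.11).

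Within the excess, long stretches held no 16HBE14o- BRD8 summit. The longest run of Calu3 summits with no 16HBE14o- summit between them held 22, over 2.10 Mb of 3q22.1 (129653701 to 131753948). Of the 13 CTCF peaks in it, 8 carried Calu3 BRD8. A run of 21 lay within 0.931 Mb of 3q25.31 (155868437 to 156799662), with Calu3 BRD8 at 7 of its 11 CTCF peaks. Another run of 21 spread over 4.12 Mb from 3q26.31 to 3q26.32 (172468374 to 176590914), with Calu3 BRD8 at 5 of 18 CTCF peaks. The Calu3 peaks with summits at 131753948, 155868437, 156799662 and 172468374, at ends of these runs, overlapped a 16HBE14o- BRD8 peak. The runs thus include peaks called in both lines. They were picked after the values were seen, and no run lengths off the arm are given.

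The rank of the arm's peaks was read within each list by the authors' signal, as a percentile, with the strongest peak at 100. The arm's median percentile was 47.3 for Calu3 BRD8, 43.5 for 16HBE14o- BRD8 and 47.5 for Calu3 CTCF, against medians of 50.2 in the rest of each of the 3 lists. With adjoining peaks merged into regions, the Calu3 BRD8 median was 52.5 (47.6 to 55.6), on the other side of the middle of the list. The medians hide differences in shape. Calu3 BRD8 peaks of the arm were frequent at both ends of their list, with 107 (13.0%) in the strongest decile and 107 (13.0%) in the weakest, but 60 (7.32%) in each of the third and sixth deciles. Of the 16HBE14o- BRD8 peaks of the arm, 11 (4.38%) were in the strongest decile and 27 (10.8%) in the weakest. CTCF had 74 of its arm peaks (8.16%) in the strongest decile, 45 (4.96%) in the second and 141 (15.5%) in the fourth.

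The top of each list was set beside the arm's share of the whole list, which was 8.39% for Calu3 BRD8, 2.64% for 16HBE14o- BRD8 and 5.53% for CTCF. For Calu3 BRD8 the arm held 1 of the top 20 peaks, 10 of the top 100, 46 of the top 500 and 108 of the top 1000. Its share was 5% of the top 20, below that of the whole list. In the top 100, 500 and 1000 it was above it, at 10%, 9.2% and 10.8%. For 16HBE14o- BRD8 it held 0 of the top 100, 7 of the top 500 and 11 of the top 1000. For CTCF it held 5 of the top 20 and 21 of the top 100, above its share of the list, and 60 of the top 1000, close to it. All 10 Calu3 BRD8 and all 21 CTCF peaks of the top 100 lay between 124 and 196 Mb, the stretch that held 732 of the arm's 820 Calu3 BRD8 peaks and 784 of its 907 CTCF peaks.

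**Figure D3:**
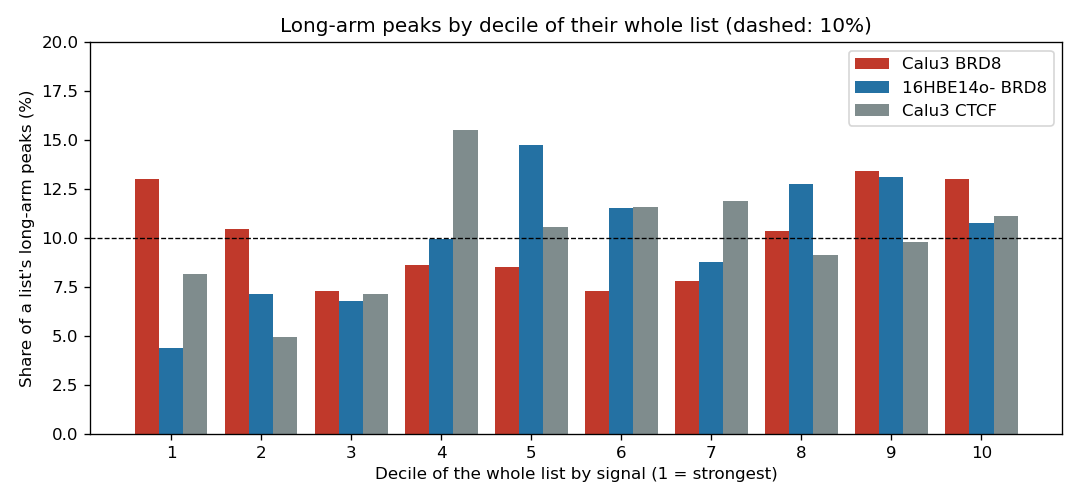
Share of each list's long-arm peaks (y axis, %) by decile of the whole list by signal (x axis, 1 the strongest), for Calu3 BRD8, 16HBE14o- BRD8 and Calu3 CTCF. The dashed line marks 10%. In the strongest decile Calu3 BRD8 stands at 13.0%, 16HBE14o- BRD8 at 4.38% and CTCF at 8.16%.

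Along the arm, the bins with at least 10 BRD8 peaks had median percentiles from 29.3 to 70.1 for Calu3 BRD8, 14.8 to 65.8 for 16HBE14o- BRD8 and 21.3 to 67.6 for CTCF. From 171 to 181 Mb Calu3 BRD8 was weak, with medians of 30.3 and 29.3 over 42 and 25 peaks. At 141 to 146 Mb it was strong, with a median of 69.9 over 27 peaks. For CTCF the bins from 126 to 196 Mb kept to medians of 41.7 to 54.7, and the bins from 96 to 126 Mb ran from 21.3 to 43.7.

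The strongest Calu3 BRD8 peak of the arm lay in 3q27.1 (chromosome 3, 184278998 to 184279470) and ranked 4 in its list. At that site 16HBE14o- BRD8 ranked 1458 and CTCF 421, and the Calu3 BRD8 and CTCF summits were 7 bp apart. The second, in 3q25.1 (148990939 to 148991260), ranked 27 for Calu3 BRD8, 1389 for 16HBE14o- BRD8 and 3939 for CTCF. The third, in 3q22.3 (136471073 to 136471432), ranked 32 for Calu3 BRD8, 239 for 16HBE14o- BRD8 and 13 for CTCF, the lowest summed rank over the 3 lists on the arm. The next were in 3q23 (139048186 to 139048541, Calu3 rank 35 and 16HBE14o- rank 1479) and 3q29 (195577775 to 195578090, Calu3 rank 36 and 16HBE14o- rank 149). All 5 were called in both lines and overlapped CTCF. They were picked by their Calu3 rank, and no 16HBE14o- peak of the arm ranked above 132, so their better rank in Calu3 follows from the choice.

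In 16HBE14o- the strongest BRD8 peak of the arm ranked 132. It lay in 3q21.1 (123166863 to 123167086), before the stretch from 124 to 196 Mb. There was a CTCF peak ranked 456 at this site, and the nearest Calu3 BRD8 summit was 161 kb away. It was followed by the sites already named in 3q29 and 3q22.3, and by 3q13.31 (115538669 to 115538892, 16HBE14o- rank 363) and 3q21.3 (126108198 to 126108421, rank 369). The last of these had Calu3 BRD8 at rank 41 and CTCF at rank 80, the second lowest summed rank of the arm. The third lowest was in 3q29 (194992232 to 194992564), with ranks of 72 for Calu3 BRD8, 1418 for 16HBE14o- BRD8 and 25 for CTCF. The strongest CTCF peaks lay in 3q29 (194827204 to 194827480, rank 7), 3q26.2 (169386926 to 169387227, rank 8), 3q22.3 (138634298 to 138634582, rank 10, and 136471097 to 136471421, rank 13) and 3q27.1 (183602618 to 183602897, rank 18). The CTCF peak ranked 10 had 16HBE14o- BRD8 at rank 841 and no overlapping Calu3 BRD8 peak, with the nearest Calu3 BRD8 summit 0.503 kb away. That site ran against the direction of the arm's counts.

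At sites called in both lines the ranks differed in the same direction as the counts. Such sites, each taken with its strongest peak on either side, numbered 188 on the arm. Their median percentile was 79.7 in Calu3 and 47.2 in 16HBE14o-, and the median difference per site was 26.6 percentile points (20.7 to 32.2). Calu3 ranked higher at 162 of the 188 sites (86.2%), while over all 4113 such sites of the genome it did so at 56.2%. Off the arm the median difference was 2.65 points (1.79 to 3.76). A difference in the same direction was found on 11p, at 41.6 points (31.2 to 51.2) over 20 sites, and on 3p, at 22.5 points (3.82 to 30.5) over 60 sites. All 13 bins of the arm with at least 5 such sites had a median difference above 0. It ran from 1.18 points at 111 to 116 Mb to 47.7 points at 141 to 146 Mb. No such count is given for the bins of the whole genome. Between 124 and 196 Mb the difference was 29.2 points (23.6 to 35.6) over 161 sites, and before it 4.26 points (-20.0 to 27.6) over 19 sites.

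**Figure D4:**
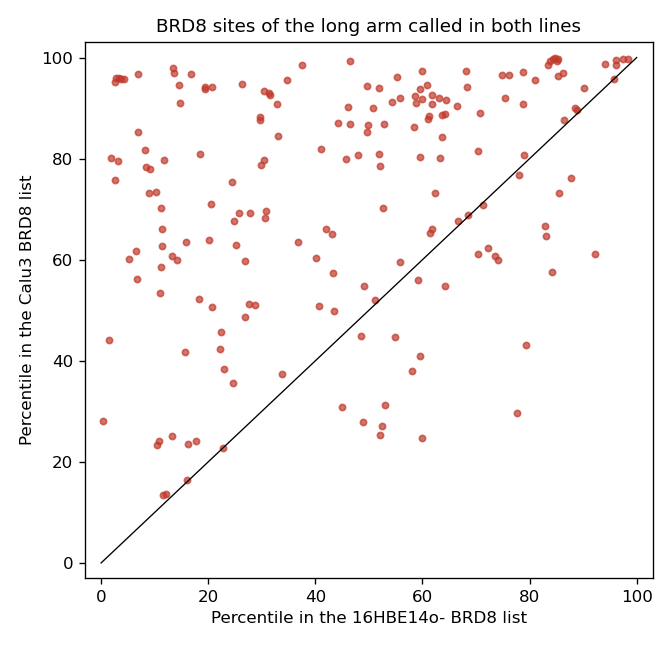
Percentile by signal in the Calu3 BRD8 list (y axis) against that in the 16HBE14o- BRD8 list (x axis) for the 188 BRD8 sites of the long arm called in both lines; 100 is the strongest. The line marks equal percentiles, and 162 points lie above it.

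The same comparison was made within Calu3, at the 413 sites of the arm with both BRD8 and CTCF. BRD8 had a median percentile of 73.1 and CTCF 61.7, and the median difference per site was 12.8 points (8.13 to 15.9). Off the arm it was -1.59 points (-2.32 to -0.791) over 5387 sites. At the 215 sites with Calu3 CTCF and 16HBE14o- BRD8, the CTCF percentile exceeded the BRD8 percentile by a median of 20.4 points (15.9 to 25.8), against 5.80 (5.09 to 6.96) off the arm. The 3 comparisons share lists, so they are not independent of each other.

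A minority of the arm's Calu3 BRD8 peaks were called in 16HBE14o-, and most 16HBE14o- peaks were called in Calu3. By overlap of at least 1 bp, 240 of 820 Calu3 BRD8 peaks met a 16HBE14o- peak, or 29.3% (26.2 to 32.5%), against 50.1% in the whole list. In the other direction 188 of 251 16HBE14o- peaks met a Calu3 peak, or 74.9% (69.1 to 80.1%), against 43.4% in the whole list. In the strongest Calu3 decile most of the arm's peaks were shared, 64 of 107 (59.8%), against 83.2% of those elsewhere. In the second decile 32.6% of the arm's Calu3 peaks were shared, against 69.7% elsewhere. In the strongest decile of the 16HBE14o- list the arm did not stand apart, with 8 of its 11 peaks shared (72.7%) and 73.3% of those elsewhere. In the weakest decile 70.4% of the arm's 16HBE14o- peaks were shared, against 21.1% elsewhere. When each peak had to cover at least 50% of the other, which the unequal widths of the lists limit, 3.05% of the arm's Calu3 peaks and 9.96% of its 16HBE14o- peaks were shared.

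Calu3 peaks with no 16HBE14o- BRD8 peak within 1 kb numbered 558, and 16HBE14o- peaks with no Calu3 BRD8 peak within 1 kb numbered 59. No share at this distance is given for the whole lists, so these counts have no background. By overlap of at least 1 bp, 70.7% of the arm's Calu3 peaks were of that line alone, against 48.0% off the arm. For 16HBE14o- the shares were 25.1% and 57.4%. The 3 strongest of the Calu3 peaks with CTCF were all in 3q26.2, at 167765065 to 167765313 (rank 100), 170028030 to 170028206 (rank 192) and 167883509 to 167883707 (rank 314). The nearest 16HBE14o- BRD8 summits were 1102, 502 and 984 kb away. Without CTCF they were in 3q22.1 (132061814 to 132062289, rank 422, and 129816888 to 129817363, rank 467) and 3q27.1 (182902513 to 182902673, rank 448). The 3 strongest 16HBE14o- peaks with CTCF and no Calu3 BRD8 were the site in 3q21.1 named above, 3q21.3 (127794468 to 127794691, rank 426) and 3q27.3 (187465851 to 187466074, rank 2179). Without CTCF they ranked 3484 in 3q13.33 (120136100 to 120136323), 3894 in 3q13.2 (111434869 to 111435092) and 4062 in 3q25.31 (156848423 to 156848646). From these last 3 sites the nearest Calu3 BRD8 summits were 1.73, 1.58 and 6.88 kb away. The nearest CTCF summits were 1.70, 1.57 and 0.323 kb away, so the classes depend on the distance and overlap rules. Of the 59 sites of 16HBE14o- alone, all but the first 2 ranked 2179 or further down the list.

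At CTCF peaks the BRD8 lists can be compared over the same sites. Of the 907 CTCF peaks of the arm, 421 carried Calu3 BRD8 (46.4%, 43.1 to 49.7%) and 215 carried 16HBE14o- BRD8 (23.7%, 21.0 to 26.6%). Over the whole CTCF list the shares were 36.1% for Calu3 and 38.0% for 16HBE14o-. CTCF peaks with BRD8 in Calu3 alone numbered 247 (27.2%), against 13.6% of those off the arm. With BRD8 in 16HBE14o- alone there were 41 (4.52%), against 16.9% off the arm. The other classes differed less. BRD8 of both lines was at 174 (19.2%), against 21.9% off the arm, and no BRD8 at 445 (49.1%), against 47.6%. Calu3 had more CTCF peaks with BRD8 in 19 of the 22 bins, and the 3 others all lay before 111 Mb. This count of bins was not made for the whole genome, so it has no background. The share reached 63.3% for Calu3 and 30.6% for 16HBE14o- at 186 to 191 Mb. At 166 to 171 Mb it was 47.4% for Calu3 and 7.02% for 16HBE14o-, and at 106 to 111 Mb Calu3 BRD8 was at 1 and 16HBE14o- BRD8 at 6 of 12 CTCF peaks.

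**Figure D5:**
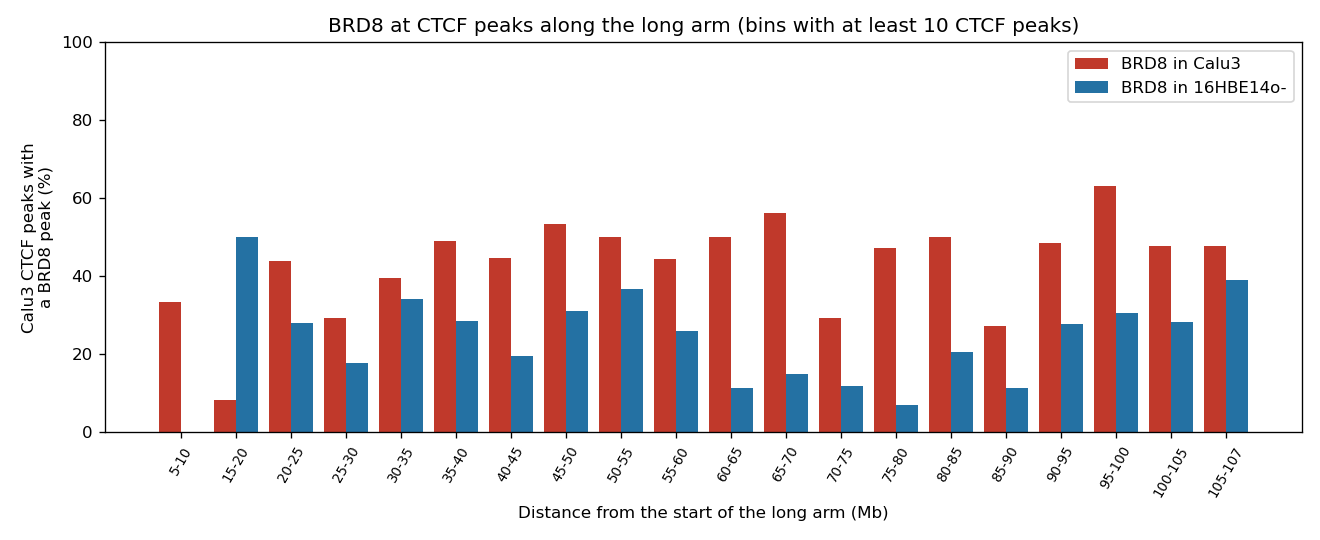
Share of Calu3 CTCF peaks that overlap a BRD8 peak in Calu3 or in 16HBE14o- (y axis, %), in 5 Mb bins of the long arm with at least 10 CTCF peaks, by distance from the arm's start (x axis). Calu3 bars exceed 16HBE14o- bars in every bin drawn but that at 15 to 20 Mb, where 1 and 6 of 12 CTCF peaks carry BRD8.

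The arm's BRD8 peaks of both lines differed in how often they lay at CTCF. Of the Calu3 peaks, 526 of 820 overlapped CTCF, or 64.1% (60.8 to 67.4%), against 70.5% in the whole list. With a reciprocal overlap of at least 50% the share was 1.92 percentage points higher on the arm than off it, which turns that direction. Of the 16HBE14o- peaks, 215 of 251 did so, or 85.7% (80.7 to 89.7%), against 65.3% in the whole list. Among Calu3 peaks called in both lines the share was 91.7% (87.4 to 94.8%) on the arm, against 86.3% off the arm. Among those of Calu3 alone it was 52.8% (48.6 to 56.9%), against 54.5% off the arm. The class of Calu3 alone thus stood near its value elsewhere, and that of both lines stood above it. The Calu3 peaks of the arm without CTCF that were not called in 16HBE14o- numbered 274 (33.4% of its Calu3 peaks, 21.9% off the arm). They were weak, with a median percentile of 25.1, and this class was weak off the arm as well, at 31.2. Calu3 peaks of that line alone with CTCF numbered 306 (37.3%, 26.2% off the arm), with a median percentile of 57.2, against 49.3 off the arm. No CTCF list of 16HBE14o- was analysed here, and absence from the CTCF list does not show that CTCF was absent.

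The peaks had the same median width on and off the arm, 476 bp for Calu3 BRD8, 224 bp for 16HBE14o- BRD8 and 290 bp for CTCF. Neighbouring Calu3 BRD8 peaks adjoined more often on the arm: merging left 646 regions of its 820 peaks, and 169 of them (26.2%) joined several peaks, against 18.2% off the arm. The median distance of Calu3 BRD8 from CTCF summits at overlapping peaks was 47 bp on the arm and 37 bp off it. For 16HBE14o- BRD8 it was 18 bp on the arm and 19 bp off it. Merged into regions, the arm's ratio of list shares was 2.99 (2.58 to 3.47).

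Set beside other arms, 3q was one of several that differed between the lines. The short arm of chromosome 3 had a ratio of 2.13 (1.70 to 2.66) from 260 Calu3 and 119 16HBE14o- BRD8 peaks, and its interval lay below that of 3q. The short arm of chromosome 11 had the larger ratio, 7.88 (5.41 to 11.8), but fewer peaks, 251 and 31. There CTCF exceeded 16HBE14o- BRD8 as much as Calu3 BRD8 did, by 8.13 times (5.64 to 12.1), and the Calu3 BRD8 share was 0.969 times the CTCF share (0.827 to 1.13), below the 1.52 of 3q. On 3p the Calu3 BRD8 share was 1.19 times the CTCF share (1.01 to 1.40), an interval that overlaps that of 3q (1.38 to 1.67). The rank difference between BRD8 and CTCF within Calu3 was 12.8 points on 3q, -1.43 (-7.02 to 2.96) on 11p and 0.892 (-5.39 to 6.30) on 3p. Other measures were of like or larger size on those arms. Calu3 BRD8 peaks met by 16HBE14o- BRD8 made up 29.3% on 3q, 10.8% on 11p and 25.8% on 3p. CTCF peaks with BRD8 in Calu3 alone made up 27.2% on 3q, 34.7% on 11p and 25.4% on 3p. The long arm of chromosome 6 ran the other way, with 112 Calu3 and 355 16HBE14o- peaks, and a median difference at sites of both lines of -10.9 points (-28.7 to -3.85). These arms were chosen with their ratios known, and the differences between arms were not tested.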

How the data were processed

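BRD8 and CTCF ChIP-seq of 6 samples, 2 replicates of each of 3 experiments, were deposited as 3 narrowPeak lists, and the build is hg19 per the file headers. The authors made each list from 2 replicates, per the series' design text, by IDR (irreproducible discovery rate), a method that retains peaks of similar rank between replicates. The aligner, peak caller, control library and settings are not given in the sources used here. The deposited signal column gave all ranks, which are within a list only. The deposited score columns were not used in any result, and a further deposited column gave the summit's distance from the peak's start, which is another kind of number. All peaks were used without a filter.

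The members, lists, bins and comparisons were chosen with earlier results of these data known. The scan of the long arm alone and the differences from the rest of the genome under each alternative were added after the data were seen. Peaks were placed in bins by summit, and overlap meant at least 1 bp. A ratio of list shares has the exact interval of the binomial split of the peaks between lists. Shares have Clopper-Pearson intervals, and medians the exact interval of their order statistics, all at 95%. Chromosome lengths and bands of hg19 came from GenomeInfoDb 1.38.1 and circlize 0.4.16. Python 3.11.15, numpy 2.4.6, pandas 2.3.3, scipy 1.17.1 and matplotlib 3.10.9 were used, and the overlap and stretch functions were tested on simulated data. Named peaks are the 5 strongest of each list on the arm, the 3 strongest of each line alone with and without CTCF, and the sites of lowest summed rank.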

Additional observations from a re-analysis of the deposited data

How the results depend on the processing

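Of 60 values recomputed for the main results, 44 stayed within the interval of the value reported (for counts of bins within 1.5 times, for edges within 5 Mb) and 16 moved. The share of Calu3 BRD8 peaks met by 16HBE14o- BRD8 moved to 3.05% with a reciprocal overlap of at least 50%, 21.2% with summits within 100 bp, 25.5% with peaks of 200 bp and 20.8% in the upper 50% of each list. With the reciprocal overlap 9.96% of 16HBE14o- BRD8 peaks met Calu3 BRD8. Between the BRD8 lists the reciprocal rule is one that most pairs cannot meet by their widths. Calu3 BRD8 at CTCF stood at 43.7% with the reciprocal overlap, 46.2% with summits within 100 bp and 55.0% with peaks of 200 bp. CTCF peaks with Calu3 BRD8 stood at 38.8% with the reciprocal overlap, 41.7% with summits within 100 bp and 55.6% in the upper 50%. Against the rest of the genome, 5 of these 6 shares kept their direction under the 5 alternatives, and Calu3 BRD8 at CTCF turned under the reciprocal overlap, by 1.92 percentage points. The bins past the fold numbered 27 of 35 with 2 Mb bins and 9 of 11 with 10 Mb bins. The stretch on chromosome 3 began at 15.3 Mb in the upper 50% of each list. With the full lists at 3 times the odds, that on the long arm alone began at 124 Mb. The median percentile of Calu3 BRD8 was 52.5 after merging, above the middle of its list. After merging, the median rank difference at sites of both lines was 22.8 points (15.8 to 29.5) on the arm and -0.412 points off it. Apart from that limit of width, the cause of these changes was not tested. No paired analysis was possible because each list pools its replicates, and for the same reason no replicate could be left out. Depth is unknown, so a site with no listed peak is not shown to be unbound.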

Other observations

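Just outside the arm the direction turned. The bin next to the centromere on the short arm, 86 to 91 Mb, held 1 Calu3 and 22 16HBE14o- BRD8 peaks, a ratio of 0.0442 (0.00107 to 0.274), among 11 CTCF peaks. The strongest of these 16HBE14o- peaks ranked 17 in its list. The last 2 16HBE14o- peaks before position 91000000 lay in 3p11.1 (90140854 to 90141077 and 90142291 to 90142514), and the first 2 beyond it in 3q11.1 (93715372 to 93715595 and 93723244 to 93723467). The nearest Calu3 BRD8 peaks were in 3p11.2 (87553006 to 87553481) and 3q11.2 (96531937 to 96532412). Further along the short arm, the bins from 36 to 66 Mb again held more Calu3 than 16HBE14o- BRD8 peaks. The lowest ratio was 5.64 (2.86 to 12.4) at 46 to 51 Mb, from 58 and 10 peaks. The highest, 14.6, rests on few 16HBE14o- peaks. It was found at 41 to 46 Mb from 30 and 2 peaks (3.70 to 126) and at 56 to 61 Mb from 15 and 1 (2.25 to 614). The Calu3 excess of chromosome 3 was therefore not bounded by the centromere, and it was interrupted around it. These bins were picked after the values were seen, and no explanation was tested.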
